A study of Mus musculus with 9 samples.

Results

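Sphingosine 1-phosphate is a lipid signal that cells make, export, sense at their surface and break down again, and 8 genes of that route were followed here in mouse skeletal muscle. They were the exporter Spns2, the receptors S1pr1, S1pr2 and S1pr3, the kinases Sphk1 and Sphk2, the lyase Sgpl1 and the phosphatase Sgpp1. All 16 probe sets annotated to these genes were taken, out of 45037 on the array, and the 8 genes stand among 18193 that had a probe set of their own. The genes were chosen from the Spns2 values of these same arrays, lower after castration and back with testosterone. The values of Spns2 are therefore given as a description without a test, and the tests below concern the other 7 genes.

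The muscle was gastrocnemius, collected 14 days after surgery from CD-1 mice, an outbred stock, that were young adults. Testosterone mice were castrated and given a 2.5 mg testosterone pellet with 60-day release. Castration mice were castrated and given a placebo pellet. Sham mice were operated on without castration and also carried placebo, so all animals were operated on and carried a pellet. There were 3 Affymetrix arrays for each treatment, hybridised with pools of 3 animals, 27 in all, so an SD below is a spread between pools and 3 arrays per group limit the precision. The 10 skeletal muscle fibre markers looked up, among them Acta1 and Ckm, averaged between 13.45 and 13.53 on every array on the log2 scale used throughout, on which the highest value of the table was 14.24.

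Sphingosine is released when ceramide is broken down. Sphingosine kinases add a phosphate to it, transporters of the Spns2 and Mfsd2b kind carry the product out of endothelial cells, red cells and platelets, and G protein-coupled receptors on neighbouring cells detect it. Lipid phosphatases turn it back into sphingosine, and the lyase cleaves it for good. The signal is known for guiding lymphocytes out of lymphoid organs, for sealing and shaping blood vessels, and, in skeletal muscle, for acting on satellite cells, the stem cells of the fibre.

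Testosterone 2 and sham 2 were unlike the rest. The mean correlation with all remaining arrays was 0.981 for testosterone 2 and 0.972 for sham 2, and 0.989 to 0.991 for each of the others. Sham 2 was also the lowest array for 3 of the 8 genes. Differences that moved by more than 1.5 times or turned sign without both arrays are given both ways where they are printed as results.

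Spns2, the membrane transporter that exports sphingosine 1-phosphate and is best known from vascular endothelium, lies on mouse chromosome 11 between positions 72451638 and 72489976 of GRCm38.p6, and 1 probe set measured it. Since it is the gene whose level set the topic, the promoter window that RefSeq's start sites give for it is shown (GRCm38.p6, chr11:72474978-72475277, minus strand), 5′ to 3′, with the bases from the annotated start site onward in capitals.
Spns2 window: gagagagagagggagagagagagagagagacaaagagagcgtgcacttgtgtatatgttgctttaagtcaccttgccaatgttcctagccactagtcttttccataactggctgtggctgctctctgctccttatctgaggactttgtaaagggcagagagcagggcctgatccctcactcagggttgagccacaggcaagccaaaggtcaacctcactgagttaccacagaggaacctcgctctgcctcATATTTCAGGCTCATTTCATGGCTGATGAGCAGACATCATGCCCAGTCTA
This start site lies 14.9 kb inside the gene as annotated, so the window belongs to an internal start and not to the outermost one. The hexamer AGAACA, the core of androgen and glucocorticoid receptor elements, searched on both strands, was found 0 times in these 300 bases. It is present in 19.0% of the 32851 windows of the same length in the table, and the palindrome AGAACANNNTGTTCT in 3 of them. A search for letters says nothing about binding of either receptor.

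On the testosterone arrays Spns2 was at 7.82, 7.50 and 7.97. On the castration arrays it was at 6.08, 6.15 and 6.27, and on the sham arrays at 7.95, 7.25 and 7.81. The castration arrays were the lowest of the 9, close together and clear of the rest, while testosterone and sham arrays covered the same range. The highest castration array lay 0.98 below the lowest array of the other groups, a 1.97-fold gap.

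As group means, Spns2 was at 7.76 ± 0.24 with testosterone, 6.17 ± 0.09 after castration and 7.67 ± 0.37 in sham (SD, n = 3 each). After castration it differed from sham by −1.50 (SE 0.19), a 2.84-fold lower level. Testosterone minus castration was 1.60 (SE 0.19), a 3.03-fold higher level. Both differences use the same castration arrays and are not separate evidence. Testosterone minus sham was 0.09 (SE 0.19), within the spread of the arrays. Sham 2 and testosterone 2 were the lowest arrays of their groups. Without both, castration minus sham was −1.71, testosterone minus castration 1.73 and testosterone minus sham 0.02.

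Markers of other cell types were set beside Spns2, because whole muscle was measured and fewer cells of a type cannot be told apart from less RNA per cell. Markers of endothelium, where the transporter is best known, averaged 5.41 to 5.69 with testosterone, 5.66 to 5.90 after castration and 5.29 to 5.61 in sham, and 10 of the 12 were higher in castration than in sham. The castration arrays, low for Spns2, were thus high for these markers, though castration 3 lay below testosterone 1, and 0 of the 12 passed the test. The lowest arrays of the other groups were testosterone 2, at 5.41, and sham 2, at 5.29. The median castration minus sham difference of the 12 was 0.26, beside 0.01 over all genes, and 0.20 without sham 2 and testosterone 2. Adipocyte markers averaged 4.89 to 6.82 with testosterone, 4.75 to 4.87 after castration and 5.15 to 6.53 in sham, with 6 of 6 measured lower in castration than in sham. Testosterone 3, at 4.89 for adipocyte markers and so next to the castration arrays, had the highest Spns2 value of all. Sham 2 and testosterone 2, the arrays with the most adipocyte signal at 6.53 and 6.82, had the lowest Spns2 values of their groups. The part of either cell type in the Spns2 values was not tested. Lymphocyte markers were at 4.27 on testosterone 2 and at 2.96 to 3.46 elsewhere.

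**Figure D1:**
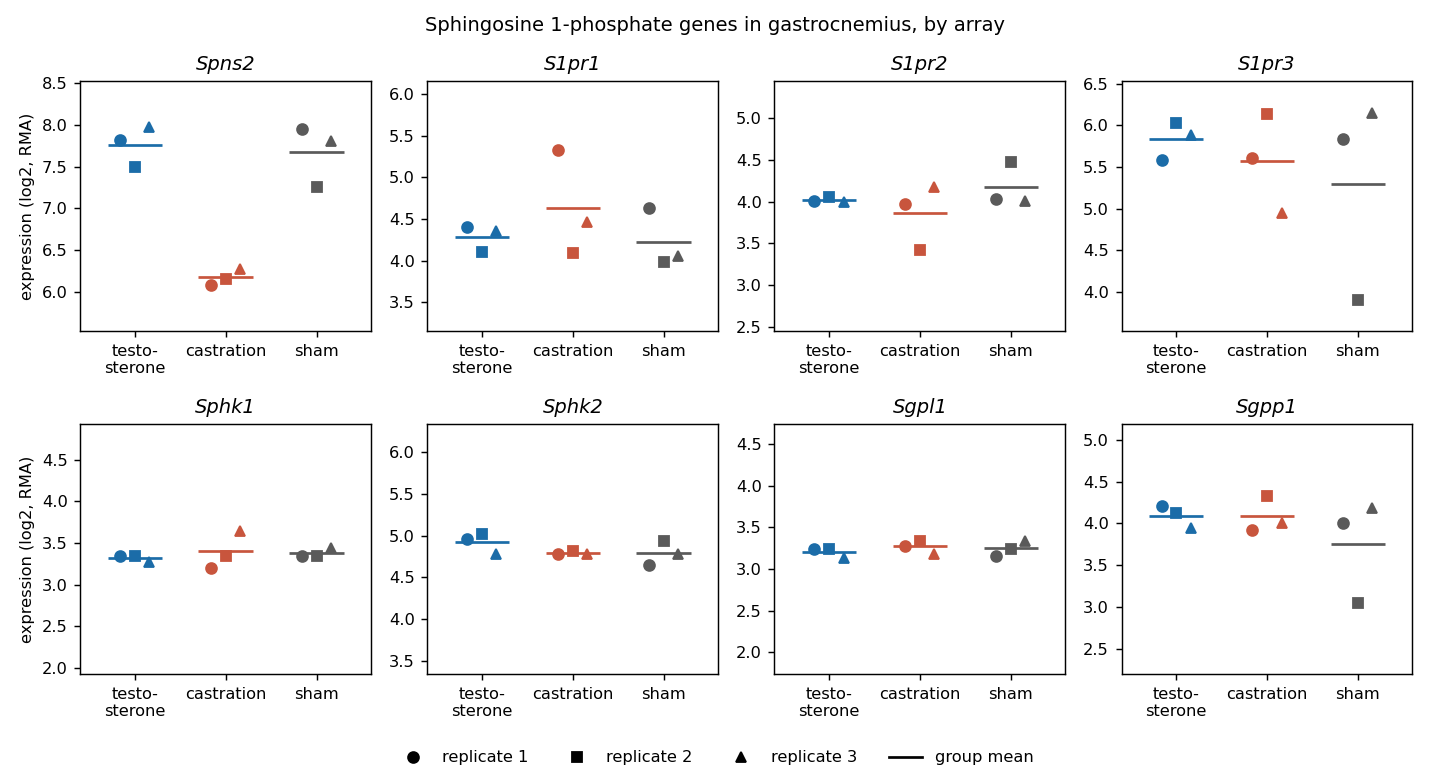
Expression of the 8 genes by array, in log2 units, each by its probe set with the highest mean. Each panel spans 3 log2 units, symbols mark the replicate number, and bars are group means (n = 3). The castration arrays of Spns2 lie between 6.08 and 6.27, below all others, while the groups overlap in each of the other 7 panels.

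The receptors were not split by castration in this way. S1pr1, the receptor that endothelial cells and lymphocytes carry in abundance, was at 4.40, 4.11 and 4.36 with testosterone. It was at 5.33, 4.09 and 4.46 after castration and at 4.63, 3.98 and 4.06 in sham. Castration 1 was the highest array and the other castration arrays fell inside the range of the rest. Castration minus sham was 0.40, with a 95% interval of −0.28 to 1.08 (limma, adjusted p = 0.883), and 0.05 without castration 1. Testosterone minus castration was −0.34, with an interval of −1.02 to 0.35 (limma, adjusted p = 1.0), and 0.01 without castration 1. Between testosterone and sham the difference was 0.06. Castration 1 was also the array with the highest endothelial marker level, 5.90; the part of this in the S1pr1 value was not tested.

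S1pr2, another receptor of the family, was read by 2 probe sets that disagreed. The brighter, whose suffix marks it as open to cross-hybridisation, was at 4.01, 4.05 and 4.00 with testosterone, at 3.97, 3.42 and 4.18 after castration and at 4.03, 4.47 and 4.01 in sham. Castration 2 was its lowest array and sham 2 its highest. Its castration minus sham difference was −0.31, with an interval of −0.76 to 0.14 (limma, adjusted p = 0.883). It was −0.16 without sham 2 and −0.09 without castration 2. The dimmer probe set was at 3.45, 3.42 and 3.87 with testosterone, at 3.50, 3.45 and 3.45 after castration and at 3.41, 3.39 and 3.25 in sham. All its testosterone and castration arrays lay above all its sham arrays, by a margin as small as the second decimal. It was the only one of the 15 probe sets other than Spns2 whose groups did not overlap, in castration against sham and again in testosterone against sham. Over all probe sets the arrays did not overlap in 7.97% for castration against sham, 7.94% for testosterone against castration and 6.82% for testosterone against sham, and higher in the group named first in 4.26%, 3.85% and 3.11%, so 1 of 15 is near the background. Its testosterone minus sham difference was 0.23, with an interval of −0.04 to 0.50 (limma, adjusted p = 0.797).

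S1pr3, a receptor found on vascular smooth muscle, was the most scattered of the genes. Its brightest probe set was at 5.58, 6.03 and 5.88 with testosterone, at 5.61, 6.14 and 4.95 after castration and at 5.84, 3.91 and 6.15 in sham. Sham 2 alone lay far below, and the remaining arrays of all groups mixed. The sham mean was 5.30 ± 1.21 (SD, n = 3) for that reason. Testosterone minus sham was 0.53, with an interval of −0.72 to 1.78 (limma, adjusted p = 0.820), and −0.26 without sham 2 and testosterone 2. Castration minus sham was 0.27, and −0.43 without those arrays. Both differences turned sign without sham 2, and castration minus sham was also −0.02 without castration 2. Testosterone minus castration was 0.26, with an interval of −0.99 to 1.51. It was 0.16 without sham 2 and testosterone 2, and −0.04 without castration 3. The other S1pr3 probe sets averaged 3.39 and 3.07, close to the array medians of 3.15 to 3.26, where a change is hard to see.

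The kinases that make the lipid were nearly level. Sphk2, the kinase found in the nucleus and mitochondria, was at 4.96, 5.02 and 4.78 with testosterone on its brighter probe set. It was at 4.78, 4.81 and 4.78 after castration and at 4.65, 4.93 and 4.78 in sham. Castration minus sham was 0.01, with an interval of −0.20 to 0.21 (limma, adjusted p = 0.993), and 0.08 without sham 2 and testosterone 2. Testosterone minus castration was 0.13, with an interval of −0.08 to 0.34, and likewise 0.08 without them. The dimmer Sphk2 probe set was at 3.57, 3.65 and 3.59 with testosterone and at 3.94, 4.16 and 3.61 after castration, a difference of −0.30 (interval −0.60 to −0.00, limma adjusted p = 1.0) whose sign was opposite to that of the brighter one. Castration 3 overlapped the testosterone arrays there.

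Sphk1, the cytoplasmic kinase that moves to the plasma membrane when cells are stimulated, was dim. Its brighter probe set lay between 3.20 and 3.65 on all arrays and both extremes were castration arrays. Against sham, castration differed by 0.02, with an interval of −0.22 to 0.27, and by 0.01 without sham 2 and testosterone 2. Testosterone minus castration was −0.08, with an interval of −0.33 to 0.17. Its other probe set averaged 2.95, below the median of all probe sets, 3.18.

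The enzymes that remove the lipid did not separate the groups either. Sgpl1, the lyase that ends the pathway, lay between 3.13 and 3.34 on its brighter probe set, the narrowest range of all 16 at 0.21, and its other probe set averaged 2.94. At levels this close to the array medians a change is hard to see. The castration minus sham difference was 0.02 (interval −0.15 to 0.20) and testosterone minus castration −0.07 (interval −0.24 to 0.11).

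Sgpp1, the phosphatase that returns the lipid to sphingosine, was at 4.21, 4.12 and 3.95 with testosterone, at 3.92, 4.33 and 4.00 after castration and at 4.00, 3.05 and 4.19 in sham. Only sham 2 departed from the others. Castration minus sham was 0.34 (interval −0.27 to 0.95, limma adjusted p = 0.883) and −0.01 without sham 2 and testosterone 2. Testosterone minus sham was likewise 0.34 and then −0.02. Testosterone minus castration was 0.01 (interval −0.60 to 0.62) and then −0.01. The remaining Sgpp1 probe sets averaged 3.43 and 3.25, and the one at 3.43 has the same suffix as the brighter S1pr2 probe set.

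Over the 15 probe sets of these 7 genes, 0 passed an adjusted p of 0.05 in any of the comparisons or in the F test over the groups, with limma. Among all 45037 probe sets the share passing was 0.0% in each comparison, so the absence of calls is no feature of these genes. At an unadjusted p under 0.05 there were 0 of 15 for castration against sham, 1 of 15 for testosterone against castration and 1 of 15 for testosterone against sham, beside 4.19%, 3.02% and 4.75% of all probe sets. Castration minus sham differences ran from −0.31 to 0.40 and testosterone minus castration from −0.34 to 0.26. For 13 of the 15 the 95% interval lay within 1 log2 unit of 0 in both, S1pr1 and the brightest S1pr3 probe set being the exceptions. The intervals are not adjusted for the number of probe sets and are not limits of detection. With 3 arrays per group, differences inside them remain possible.

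**Figure D2:**
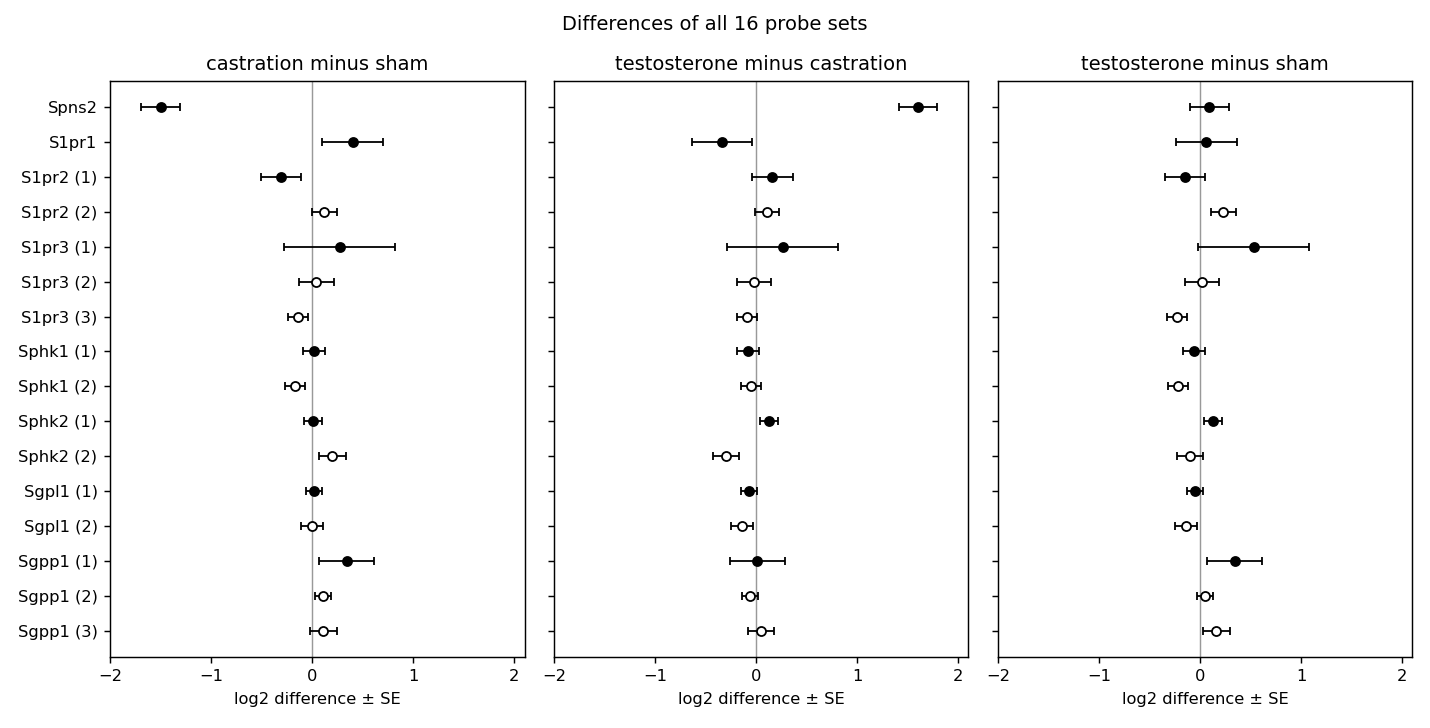
Log2 differences of all 16 probe sets, with error bars of 1 SE from the fit over 9 arrays. Filled points mark the probe set with the highest mean of a gene, open points the others, numbered by falling mean. Spns2 is at −1.50 and 1.60 in the comparisons with castration arrays, while the other 15 lie between −0.34 and 0.40 there.

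Further genes of the same route were read from a list of 14, each by its brightest probe set, and 0 of them passed the test in any comparison. The arrays did not overlap for 2 of the 14 in castration against sham, beside 7.97% of all probe sets. In testosterone against castration this held for 3 of the 14 and in testosterone against sham for 2, beside 7.94% and 6.82%. Their median differences were 0.06 in castration minus sham, −0.07 in testosterone minus castration and −0.03 in testosterone minus sham, beside 0.01, −0.01 and 0.01 over all genes, and −0.04, −0.04 and −0.01 without sham 2 and testosterone 2. Mfsd2b, the exporter of red cells and platelets, was dim at 3.05 ± 0.05 with testosterone, 3.11 ± 0.08 after castration and 3.20 ± 0.24 in sham (SD, n = 3 each). Sham 2, at 3.48, was its highest array, and castration minus sham was −0.09, and 0.05 without sham 2 and testosterone 2. Spns1, a lysosomal relative of Spns2 that transports lysophospholipids, was at 6.27, 6.23 and 6.48 with testosterone, at 6.35, 6.29 and 6.45 after castration and at 6.46, 6.17 and 6.46 in sham. Its groups covered the same range and castration minus sham was 0.00, with an interval of −0.24 to 0.24, and −0.09 without sham 2 and testosterone 2. Spns3, another relative, differed by 0.22 and by −0.24 in castration minus sham and testosterone minus castration, with castration 3 alone at 4.47.

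Abcc1, an export pump that has been linked to sphingosine 1-phosphate, was at 7.44, 6.97 and 7.15 with testosterone, 7.16, 7.17 and 7.11 after castration and 7.16, 6.27 and 7.26 in sham. Apart from sham 2 its arrays lay within one band. Apom, the carrier of the lipid in high-density lipoprotein, was near the array medians, at 3.27, 3.20 and 3.25 with testosterone, 3.28, 3.31 and 3.34 after castration and 3.37, 3.70 and 3.54 in sham. Its sham arrays were the highest and its testosterone arrays the lowest, with no overlap. It differed by −0.23 in castration minus sham (SE 0.09, limma adjusted p = 0.883) and by −0.30 in testosterone minus sham (limma adjusted p = 0.797). Without sham 2 and testosterone 2 these were −0.15 and −0.20.

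Aldh3a2, the fatty aldehyde dehydrogenase that takes up the aldehyde left by the lyase, was at 4.04, 3.48 and 3.70 with testosterone. It was at 4.15, 4.02 and 4.22 after castration and at 3.84, 3.76 and 3.71 in sham. The castration arrays lay above the sham arrays and overlapped testosterone 1. It differed by 0.36 in castration minus sham (SE 0.13, limma adjusted p = 0.883) and by −0.39 in testosterone minus castration (SE 0.13, limma adjusted p = 1.0), and without sham 2 and testosterone 2 these were 0.35 and −0.26. Abcg2, a pump also named for this lipid, differed by 0.63 in castration minus sham and by 0.26 without those arrays.

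The receptors S1pr4 and S1pr5, known from lymphocytes and natural killer cells, and the phosphatase Sgpp2 were dim. S1pr4 lay between 3.28 and 3.91, with testosterone 2, the array richest in lymphocyte markers, at the top. S1pr5 lay between 2.74 and 3.07, and its testosterone arrays were all above its castration arrays, by 0.18 in the mean. Sgpp2 lay between 2.59 and 3.05 and its testosterone arrays were the lowest, by −0.17 against castration and −0.25 against sham. Plpp3, the surface phosphatase that clears the lipid outside cells, was at 9.42 ± 0.08 with testosterone, 9.33 ± 0.07 after castration and 9.21 ± 0.38 in sham (SD, n = 3 each). Sham 2, at 8.77, was its lowest array. Its castration minus sham difference was 0.12 and testosterone minus sham 0.20, and without sham 2 and testosterone 2 these were −0.10 and −0.02. Plpp2, a related phosphatase, differed by −0.25 in testosterone minus sham, and by 0.06 without sham 2 and testosterone 2.

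Sphingolipid synthesis and breakdown, which supplies the sphingosine, was read from 28 measured genes of 32 listed, and 0 passed in any comparison. The median castration minus sham difference was 0.04, beside 0.01 over all genes, and 20 of the 28 were above 0. Without sham 2 and testosterone 2 that median was 0.01. The smallest p-values there were those of Sptlc2, Sptlc1, Ormdl1 and Cers4. Ormdl1, a brake on serine palmitoyltransferase, was at 5.50, 5.56 and 5.41 after castration and at 5.11, 3.72 and 5.48 in sham, and its difference of 0.72 was 0.19 without sham 2 and testosterone 2. Sptlc1 and Sptlc2, subunits of that first enzyme of sphingolipid synthesis, differed by 0.55 and −0.28, and by 0.26 and −0.26 without those arrays. Cers4, a ceramide synthase, differed by −0.15.

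In testosterone minus castration the median of these genes was −0.03, beside −0.01 over all genes, and 18 of the 28 were below 0. Without sham 2 and testosterone 2 that median was −0.01. Sptssb, Sgms2, Gba2 and Asah1 had the smallest p-values, with differences of −0.15, 0.14, −0.14 and −0.19, and −0.17, 0.18, −0.12 and −0.07 without sham 2 and testosterone 2. Asah1 encodes the lysosomal ceramidase that releases sphingosine, and Gba2 a glucosylceramidase. In testosterone minus sham the median was 0.06 beside 0.01, and 0.02 without sham 2 and testosterone 2. Cers5, a ceramide synthase, had the smallest p there, with a difference of 0.51. Cers5 was at 5.13, 5.17 and 5.13 with testosterone, 4.97, 4.97 and 4.97 after castration and 4.86, 4.04 and 5.01 in sham. The testosterone arrays were above both other groups, and the difference from sham was 0.20 without sham 2 and testosterone 2. Arrays did not overlap for 2 of the 28 genes against castration and 2 against sham, beside 7.94% and 6.82% of all probe sets. Cers4, Smpd3 and Kdsr followed, at −0.16, −0.25 and 0.10, and at −0.16, −0.10 and 0.07 without those arrays.

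Signalling partners and targets of the receptors, 18 measured of 20 listed, also gave 0 passing in any comparison. Their medians were 0.08 in castration minus sham, 0.03 in testosterone minus castration and 0.11 in testosterone minus sham, beside 0.01, −0.01 and 0.01 over all genes, and −0.01, 0.01 and −0.04 without sham 2 and testosterone 2. Ccn1, a secreted matrix protein and target of Yap1, was at 5.39, 5.97 and 5.14 with testosterone and at 4.70, 5.28 and 4.85 after castration, a difference of 0.56 (SE 0.22, limma adjusted p = 1.0) with overlapping arrays. Testosterone 2 was its highest array. Gna13 and Gnai1, G protein subunits, and Arhgef12, an exchange factor, differed by 0.53, 0.60 and −0.35 in the same comparison, and testosterone 2 was the highest array for Gna13 and for Gnai1 as well. Without sham 2 and testosterone 2, Ccn1, Gna13, Gnai1 and Arhgef12 differed by 0.32, 0.22, 0.22 and −0.02. Rhoa, Arhgef11, Ccn1 and Stat3 had the smallest p-values in castration minus sham, with 0.24, 0.14, −0.29 and 0.13, and with 0.07, 0.07, −0.37 and 0.01 without those arrays. Rock1, Gnai1, Gna13 and Ccn2 had them in testosterone minus sham, with 0.34, 0.64, 0.39 and 0.52, and with 0.18, 0.04, −0.05 and −0.10 without those arrays, so the signs of Gna13 and Ccn2 turned.

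**Figure D3:**
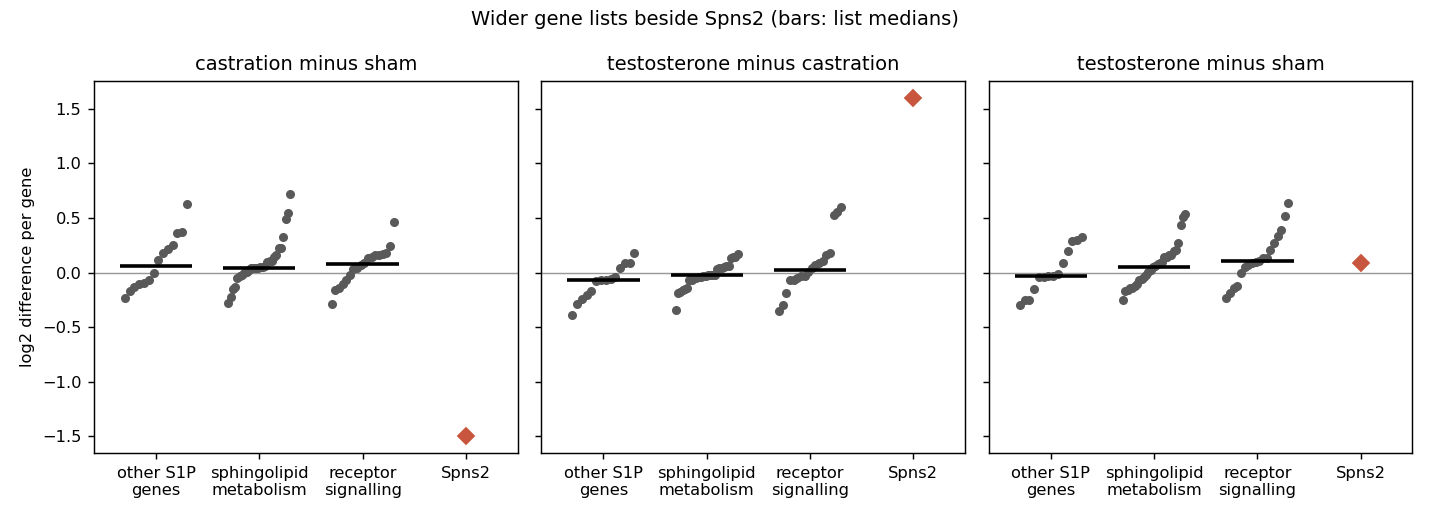
Log2 differences per gene for the 14 other sphingosine 1-phosphate genes, the 28 genes of sphingolipid metabolism and the 18 receptor signalling genes, with bars at the list medians and Spns2 beside them. The listed genes lie between −0.39 and 0.72 in all panels, while Spns2 is at −1.50, 1.60 and 0.09.

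Genes whose levels ran most like those of Spns2 were looked up among the 12100 genes with a mean above the median of all probe sets. Likeness was Pearson's correlation over the 9 arrays, given as a description, since arrays of a group share their treatment and any gene that separates castration from the rest scores high. The 10 most like Spns2 were Tns1, Smox, Mss51, Slc30a2, Odc1, Ppp1r3c, Kif3c, Fkbp5, Tmem37 and Cdkn2aipnl, with r from 0.99 to 0.94. With the group means removed, r over the same arrays was 0.48 to 0.87, and without sham 2 and testosterone 2 it was 0.94 to 0.99. The 10 were picked for a high r on these same arrays, so neither range is separate evidence of likeness.

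Tns1, a tensin that ties integrins to actin, followed Spns2 most closely but over a much smaller span. It was at 9.98, 9.94 and 10.06 with testosterone, 9.67, 9.65 and 9.66 after castration and 9.99, 9.88 and 10.04 in sham. As for Spns2, the arrays numbered 2 were the lowest of the testosterone and sham groups. Slc30a2, a zinc transporter, was at 6.12, 6.03 and 6.20 with testosterone, 4.04, 4.30 and 4.61 after castration and 5.83, 5.03 and 5.92 in sham, and of the 10 it was the only one whose testosterone arrays were all above the sham arrays. Smox and Odc1, enzymes of polyamine metabolism, differed by −2.26 and −1.14 in castration minus sham, and Fkbp5, an immunophilin induced by steroid hormones, by −1.15. Ppp1r3c, which targets a phosphatase to glycogen, differed by −0.68, Kif3c, a kinesin motor, by −0.49, Tmem37, a membrane protein, by −0.78 and Mss51, a mitochondrial protein of muscle, by −0.97. Cdkn2aipnl differed by −0.61.

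The genes running most opposite to Spns2 were Dbp, Gprc5c, Sesn1, D230025D16Rik and Pink1, with r from −0.96 to −0.94. Dbp, a clock output factor, was at 7.91, 8.26 and 7.83 with testosterone, 8.97, 9.08 and 8.85 after castration and 7.72, 7.90 and 7.93 in sham. Pink1, a kinase that marks damaged mitochondria, was at 10.75, 10.91 and 10.70 with testosterone, 11.17, 11.16 and 11.03 after castration and 10.86, 10.86 and 10.75 in sham. In both genes the castration arrays were the highest and the other groups mixed. For the other members, r with Spns2 over the 9 arrays was −0.35 for S1pr1, 0.31 for S1pr2, 0.17 for S1pr3, −0.16 for Sphk1, 0.08 for Sphk2, −0.38 for Sgpl1 and −0.03 for Sgpp1.

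**Figure D4:**
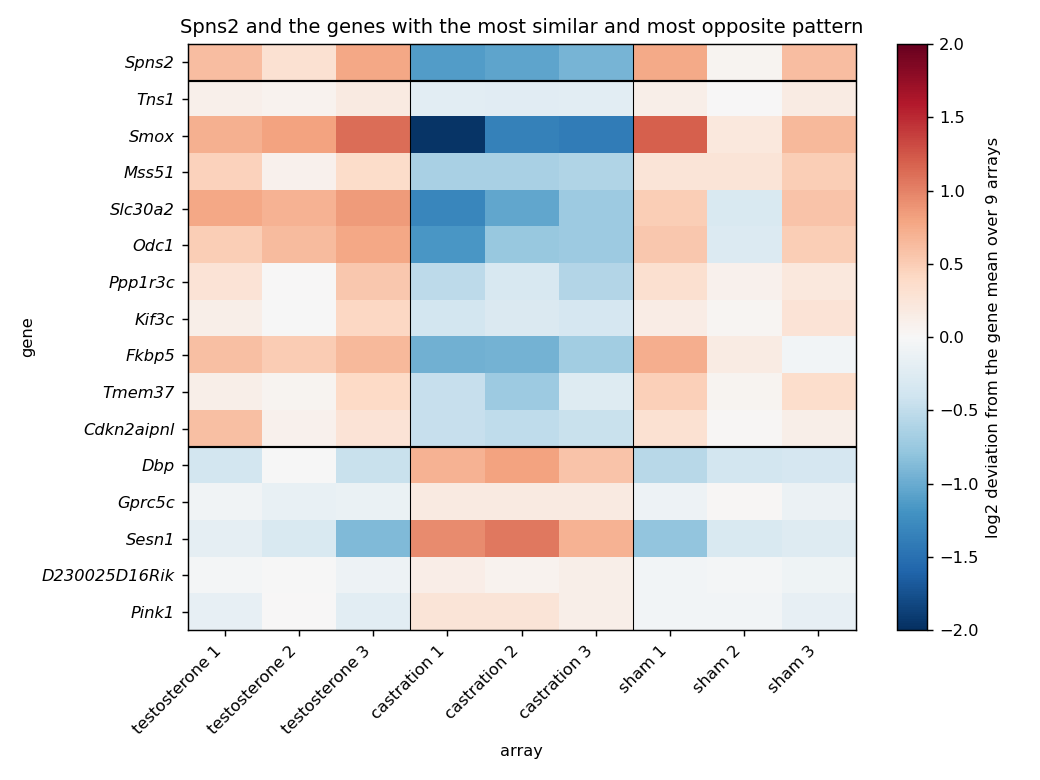
Deviation of each gene from its own mean over 9 arrays, in log2 units, for Spns2 (top row), the 10 genes most like it and the 5 most opposite (bottom block). Columns are arrays, with lines between groups. The castration arrays lie below the gene's mean (blue) for Spns2 and the 10 genes and above it (red) for the 5. Colours are pale where the differences are small, as for Tns1, Gprc5c and D230025D16Rik.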

How the data were processed

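Gene expression was measured with Affymetrix arrays in 9 pools of gastrocnemius RNA. What the authors deposited is a log2 value for each probe set, and RMA is the method that the submitters' processing notes name, without a version. RMA normalises the arrays of a run together, so an array that stands apart can move the others. The labels do not say whether all 9 arrays were processed in the same run. Arrays have no read depth. Groups and replicate numbers came from the sample titles. The table held 45101 probe sets, 64 of them controls. The platform annotation listed 34945 to 1 gene and 932 to several and left 9160 unlisted. Symbols were updated through gene identifiers, with 204 unmatched. A gene was represented by its probe set with the highest mean.

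A linear model with 1 term, the group, was fitted to 45037 probe sets over 9 arrays with limma's lmFit and eBayes (limma 3.58.1, R 4.3.3), and no probe set was filtered out. Tests were two-sided with Benjamini-Hochberg adjustment over all probe sets of a comparison and a threshold of 0.05. Replicates were separate pools of animals per the labels. No 2 arrays shared more than 5.78% of their values. The fit was run on simulated data with independent noise, as a check that inserted changes were returned. That check says nothing about small differences in these genes. The members and gene lists were chosen with earlier results of these data known. Named were the members, up to 4 genes per wider list and comparison with the smallest p, 9 genes of the route in every case, and the 10 and 5 genes most like and most opposite to Spns2. Promoter sequence is RefSeq's, for GRCm38.p6, in which 7 of the 8 genes had an entry. Marker lists of smooth muscle, macrophages, lymphatic, satellite, red and Schwann cells were also read.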

Additional observations from a re-analysis of the deposited data

How the results depend on the processing

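Of the 15 probe sets other than Spns2, 0 passed under any alternative run, the replicate block and all fits that left out an array included. Only 7 of them were tested with 1 probe set per gene, and 12 when probe sets below the median were left out. Spns2 differed by −1.71 to −1.37 in castration minus sham, by 1.49 to 1.73 in testosterone minus castration and by −0.12 to 0.23 in testosterone minus sham when 1 array was left out. In this balanced design a replicate block cannot move the differences, so Spns2 stayed at −1.50, 1.60 and 0.09 by construction, with an SE of 0.14 against 0.19 without the block. The replicate numbers do not pair the arrays by the labels, and 5 of 9 same-numbered pairs correlated above 0.1 in their deviations, from −0.474 to 0.312. The highest correlations between arrays of different groups were 0.485, for castration 2 and sham 3, and 0.428, for castration 3 and sham 2. Both are pairs that differ in number, and both lie above the highest same-numbered pair. Other Spns2 probe sets could not be tried, since 1 is listed. For the 7 other genes 273 values were recomputed. Of these, 3 moved by 1 SD or more, 30 turned sign and 0 passed. Sphk2 moved that far with renewed quantile normalisation, from 0.01 to −0.15 in castration minus sham and from 0.13 to −0.03 in testosterone minus sham. The sign turns include S1pr3 in testosterone minus sham, 0.53 and then −0.26 without sham 2 and testosterone 2, and S1pr1 in testosterone minus castration, −0.34 and then 0.01 without castration 1. Over all 45037 probe sets 0 passed in each comparison. For castration against sham 1 passed after renewed quantile normalisation, 3 with an intensity trend, 2 in the analysis of variance without moderation, 32 with array weights and 15 without sham 2 and testosterone 2. For testosterone against castration these were 16, 7, 1, 42 and 20. For testosterone against sham 1 passed without moderation and 0 in the others. Leaving out 1 array gave 0 to 2, 0 to 17 and 0 to 0, with 2 and 17 reached without sham 2. The cause was not tested. Signals near the array medians limit what can be said of Sphk1, Sgpl1 and the dimmer probe sets.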

Other observations

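Markers of further cell types were read on all 9 arrays. Macrophage markers averaged 4.02 to 4.52 with testosterone, 3.94 to 4.23 after castration and 4.14 to 4.25 in sham, with testosterone 2 the highest. Smooth muscle and pericyte markers averaged 7.17 to 7.23 with testosterone, 6.99 to 7.32 after castration and 6.92 to 7.22 in sham, with sham 2 the lowest. Satellite cell markers, at 3.33 to 3.37 with testosterone, 3.33 to 3.39 after castration and 3.25 to 3.36 in sham, and lymphatic markers, at 3.39 to 3.46 with testosterone, 3.37 to 3.40 after castration and 3.37 to 3.41 in sham, lay near the array medians in all groups. Erythroid and platelet markers averaged 3.99 to 4.02 with testosterone, 3.99 to 4.08 after castration and 3.88 to 4.25 in sham. The Schwann cell marker S100b was at 3.34 to 3.54 with testosterone, 3.42 to 3.62 after castration and 3.54 to 4.35 in sham. None of these genes passed the limma test.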
